A study of Homo sapiens with 12 samples.

Results

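The 10 immediate early genes FOS, FOSB, JUN, JUNB, JUND, EGR1, IER2, ZFP36, ATF3 and DUSP1 were chosen by name, with earlier results of these data known, and all 10 were found among the 18665 genes of both tables. Immediate early genes are transcribed within minutes of a growth factor, stress or injury signal, without new protein synthesis, and the same signal that starts them also starts the genes that switch them off. The FOS and JUN proteins pair through leucine zippers into AP-1, which binds DNA and carries the signal to later genes, EGR1 and ATF3 are further transcription factors of the early wave, and ZFP36 and DUSP1 are its brakes, acting on mRNA and on MAP kinases.

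RNA was sequenced in 12 libraries, in 4 groups of 3, and all carry the label of HT29, an established line from a human colon carcinoma. The CM10 group received CM10, a small molecule that inhibits enzymes of the ALDH1A family, and CTRL_CM10 is its control. The shZBTB7B group carried a short hairpin RNA against the zinc finger transcription factor ZBTB7B, and CTRL_shZBTB7B is its control. Which hairpin was used, whether the line was 1 clone and what the control line carried were not given in the sources used here, and the labels do not say that replicates came from separate cultures, so the p-values reflect the spread among libraries alone, and that spread may be technical. Values are TPM, a level per transcript length scaled to a fixed total within each library, and the depth is unknown. In bulk samples, fewer cells of a type and less RNA per cell cannot be told apart.

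Some libraries stood apart from their group. ZBTB7B was at 2.55, 5.97 and 0 TPM in shZBTB7B replicates 1 to 3, against 22.34, 25.06 and 25.36 TPM in CTRL_shZBTB7B. Across genes, shZBTB7B replicate 2 had a Spearman rho of 0.791 to 0.820 with its controls and of 0.419 to 0.447 with its own group, and CM10 replicate 1 had 0.585 to 0.753 with its controls and 0.566 to 0.673 with its own group. Of the genes averaging at least 10 TPM in the control group, 31.3% and 36.7% were listed at 0 in CM10 replicates 2 and 3, against 0.414% to 1.14% in CTRL_CM10, and 34.7% and 29.4% in shZBTB7B replicates 1 and 3, against 0.183% to 0.526% in CTRL_shZBTB7B. A value of 0 is therefore described only as listed at 0. CM10 replicate 1, with 4.46% of such genes at 0, and shZBTB7B replicate 2, with 1.67%, had far fewer. Genes of the MTRNR2L family, near-copies of a mitochondrial RNA, took 73.8% and 46.0% of all TPM in CTRL_CM10 replicates 2 and 3 and 29.9% in shZBTB7B replicate 2, which lowers every other TPM value there.

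The label HT29 was checked against 14 markers of colon epithelium. Their summed level ran over 44.5 to 101.1 TPM in CM10 and 56.2 to 1390 TPM in CTRL_CM10, and over 382 to 1917 TPM in shZBTB7B and 68.2 to 2350 TPM in CTRL_shZBTB7B. EPCAM, an epithelial adhesion protein, was listed at 0 in CM10 replicates 1 and 2 and stood at 2.76 and 2.00 TPM in CTRL_shZBTB7B replicates 1 and 2. CDX2, the intestinal transcription factor, was listed at 0 in 8 of the 12 libraries. A defining marker of intestinal cells was thus listed at 0 in most libraries. Other markers of the list were present. KRT8 was above 0 in all 12 libraries, from 13.06 TPM in CM10 replicate 1 to 1095.15 TPM in CTRL_shZBTB7B replicate 3. EPCAM reached 64.31 TPM in shZBTB7B replicate 1 and 192.33 TPM in CTRL_shZBTB7B replicate 3. Genes of other tissues stood high in some libraries. PGA3, a stomach pepsinogen, was at 32673 TPM in CTRL_CM10 replicate 3, and PGA4, another, at 34450 TPM in shZBTB7B replicate 2, while the smooth muscle markers summed to 72020 TPM in CTRL_shZBTB7B replicate 2. The extraction text in the labels speaks of tissue. Whether each library held HT29 RNA alone cannot be told from these files, and each comparison below is one of the labelled groups, in which any difference in tissue content cannot be told apart from the effect of CM10 or the hairpin.

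The regulatory sequence in front of the genes is shown first, as a description. Whether it bears on the levels in these libraries was not tested. RefSeq promoter windows on GRCh38.p14, from 250 bases before to 50 bases after the transcription start, matched all 10 genes, with 2 windows for ATF3. Capitals mark TGACG or its reverse complement CGTCA, the core of the cAMP response element, the TATA box TATAAA on the gene's strand, and the CArG box bound by serum response factor. They lie at chr14:75278578-75278877 on the plus strand for FOS, chr19:12791236-12791535 on the plus strand for JUNB, chr5:138465229-138465528 on the plus strand for EGR1 and chr5:172771146-172771445 on the minus strand for DUSP1.
FOS: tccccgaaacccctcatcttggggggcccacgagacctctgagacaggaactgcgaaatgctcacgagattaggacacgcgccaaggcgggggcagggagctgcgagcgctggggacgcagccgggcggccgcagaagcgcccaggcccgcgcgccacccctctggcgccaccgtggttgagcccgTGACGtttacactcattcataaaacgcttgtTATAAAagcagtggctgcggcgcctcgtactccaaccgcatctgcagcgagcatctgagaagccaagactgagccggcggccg
JUNB: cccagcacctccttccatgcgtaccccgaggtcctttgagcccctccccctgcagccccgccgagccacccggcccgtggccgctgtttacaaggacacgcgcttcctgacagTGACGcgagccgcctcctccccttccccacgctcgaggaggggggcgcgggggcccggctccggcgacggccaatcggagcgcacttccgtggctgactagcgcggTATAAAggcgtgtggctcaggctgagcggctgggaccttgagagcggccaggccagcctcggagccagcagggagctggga
EGR1: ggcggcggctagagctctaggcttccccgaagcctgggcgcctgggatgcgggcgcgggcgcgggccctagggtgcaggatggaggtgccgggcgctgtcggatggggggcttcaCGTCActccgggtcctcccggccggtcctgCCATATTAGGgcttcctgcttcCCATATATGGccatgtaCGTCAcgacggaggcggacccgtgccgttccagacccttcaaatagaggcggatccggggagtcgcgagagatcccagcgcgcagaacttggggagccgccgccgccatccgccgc
DUSP1: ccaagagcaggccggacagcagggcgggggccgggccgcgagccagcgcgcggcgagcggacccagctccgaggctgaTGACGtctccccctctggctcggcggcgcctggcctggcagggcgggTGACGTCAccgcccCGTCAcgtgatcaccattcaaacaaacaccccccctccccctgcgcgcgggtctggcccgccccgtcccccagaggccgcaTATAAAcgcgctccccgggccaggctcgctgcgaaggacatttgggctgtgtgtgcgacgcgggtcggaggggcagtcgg

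TGACG or CGTCA was found in 8 of the 10 genes, all but ZFP36 and ATF3, against 28.6% of 20590 promoter windows. The full palindrome TGACGTCA, which holds the core on both strands, was in JUND and DUSP1, against 2.35% of windows. TATAAA was in FOS, FOSB, JUNB, ATF3 and DUSP1, against 5.78% of windows. In FOS, FOSB, JUNB and DUSP1 its first base lay at -33, -30, -31 and -30 from the start. In ATF3 it lay far from the start, at -230, and only in the window at chr1:212614768-212615067. The 10 genes are counted by gene and all others by window. The CArG box was found only in EGR1, with 2 matches at -105 and -83, against 1.22% of windows. The AP-1 site, TGACTCA or TGAGTCA, was in 0 of the 10 genes and in 4.01% of windows. The GC box, GGGCGG on either strand, was in 8 of 10 genes against 58.4% of windows, and CCGGAA, the core bound by ETS factors, was in 2 of 10 against 21.9%. These matches describe the windows and are not evidence of binding.

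The transcripts of the 10 genes were searched for features linked to short-lived mRNA. Annotated on GRCh37, the build of the authors' alignment, JUN, JUNB and JUND had a single exon, 3 of 10 genes against 3.24% of the 17582 genes whose transcript could be searched. The median transcript was 2058.5 bases long in the 10 genes and 3118 bases over all genes searched. ATTTA, the pentamer of AU-rich elements that ZFP36 binds to have an mRNA degraded, was in the 3′ UTR of 9 of the 10 genes, all but IER2, against 69.8% of all genes searched. The longer TATTTAT was in 7 of 10 against 33.0%. ZFP36 itself carried 5 ATTTA, FOS 5 and DUSP1 4. A stretch of each is shown with the pentamers in capitals, because these are the members with the most matches.
FOS: ttttaATTTATTTAttaagatggattctca
ZFP36: cctttATTTAtgacgactttATTTAttcta
DUSP1: tccttATTTATTTAacttcacccgagttcc

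Summed over the 10 genes, the level was 444, 34.3 and 49.2 TPM in CM10 replicates 1 to 3, against 1244, 151 and 539 TPM in CTRL_CM10. It was 98.8, 223 and 122 TPM in shZBTB7B, against 1684, 2914 and 1586 TPM in CTRL_shZBTB7B. The shZBTB7B sums all lay below those of their controls, whereas CM10 replicate 1 lay above CTRL_CM10 replicate 2. MTRNR2L genes took 73.8% of TPM in that control, against 0.706% in CM10 replicate 1, which lowers the control's sum. This overlap is therefore not a contrast between CM10 and the hairpin. None of the 10 genes was listed at 0 in a control library. In CM10 replicates 1 to 3, 0, 4 and 3 of them were, and in shZBTB7B replicates 1 to 3, 4, 1 and 3. Of all genes averaging at least 10 TPM in the controls, 4.46%, 31.3% and 36.7% were at 0 in CM10. In shZBTB7B 34.7%, 1.67% and 29.4% were. The zeros are thus not particular to the 10 genes.

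**Figure D1:**
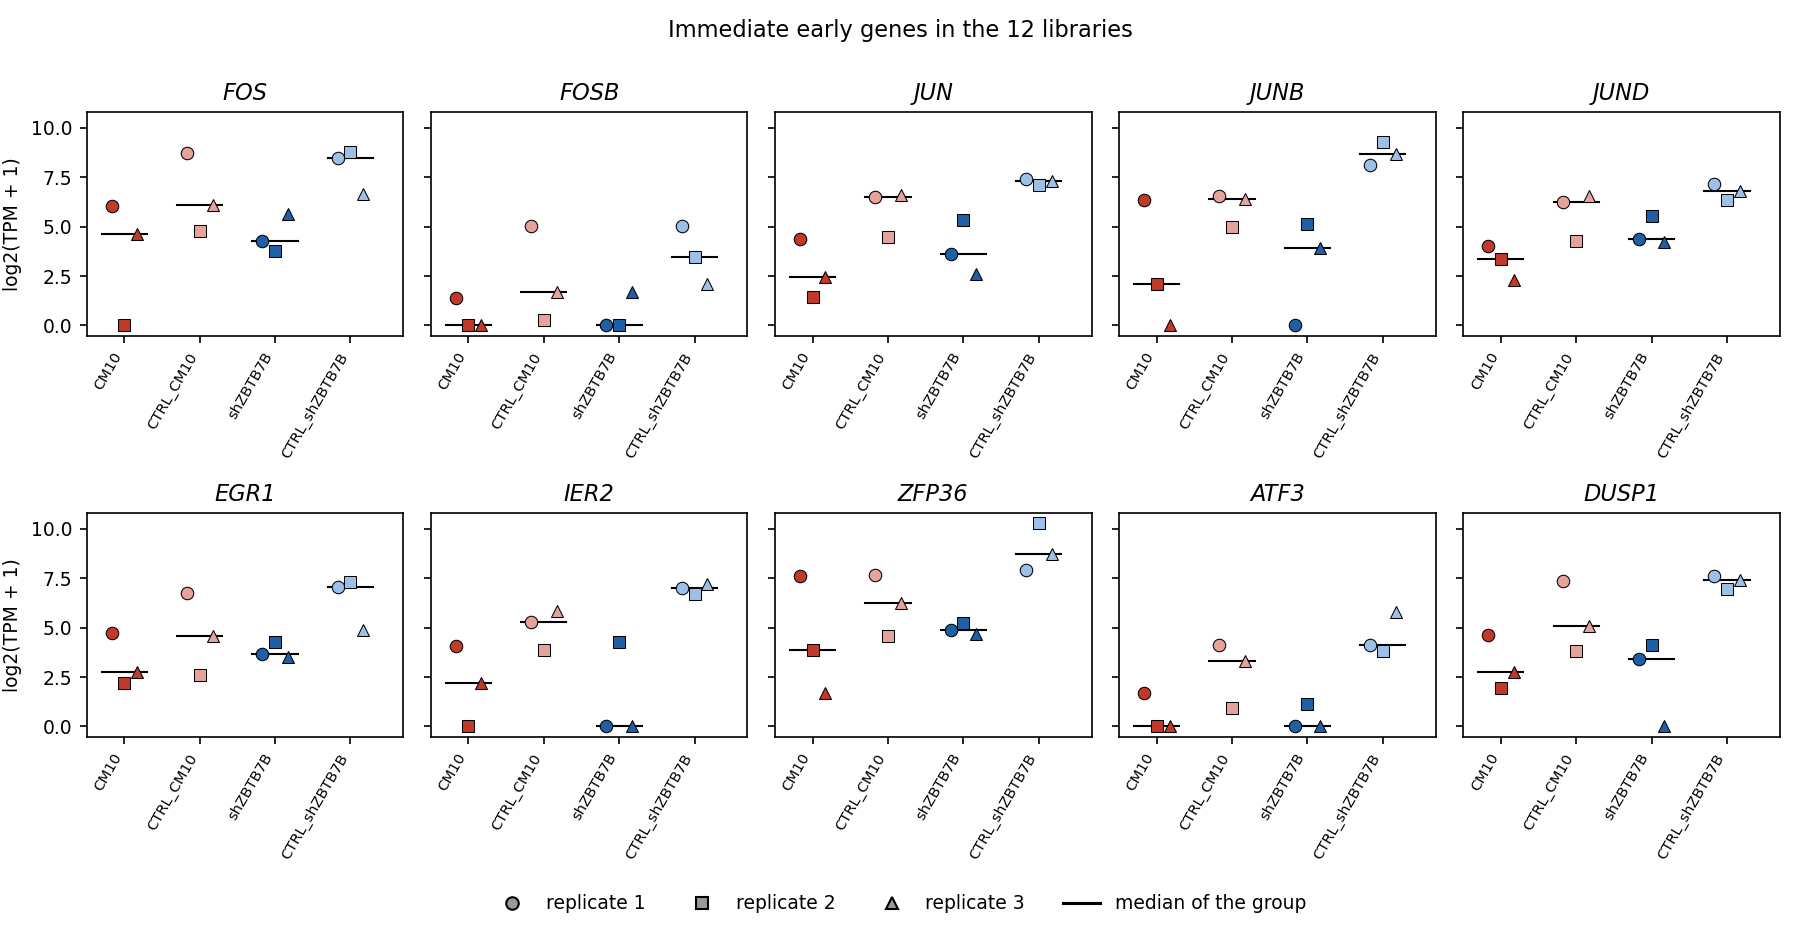
Levels of the 10 immediate early genes as log2(TPM + 1) (y axis) in the 4 groups (x axis). Points are libraries, with shape giving the replicate, and the line is the group's median. All 3 shZBTB7B points lie below all 3 CTRL_shZBTB7B points in all 10 panels, and in the CM10 experiment this holds for JUN and JUND.

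FOS, the founding member of the FOS family on chromosome 14 (75745529 to 75748933, plus strand, GRCh37), stood at 66.20, 0 and 23.44 TPM in CM10 replicates 1 to 3, against 422.40, 26.05 and 66.33 TPM in CTRL_CM10. CM10 replicate 1 overlapped the controls, and its log2 fold change on the log2(TPM + 1) scale was -2.96 (SE 1.36), which did not pass (limma adjusted p = 0.0945). In the hairpin experiment FOS was at 18.17, 12.84 and 48.10 TPM in shZBTB7B, against 352.39, 430.72 and 98.72 TPM in CTRL_shZBTB7B. It fell by 3.40 there (SE 0.84, limma adjusted p = 0.0439), with no overlap.

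FOSB, another FOS protein on chromosome 19 (45971253 to 45978437, plus strand), had a lower level than FOS in every library where either was above 0. It stood at 1.63, 0 and 0 TPM in CM10, against 32.26, 0.22 and 2.22 TPM in CTRL_CM10. The shZBTB7B libraries had 0, 0 and 2.21 TPM, against 31.26, 9.89 and 3.21 TPM in CTRL_shZBTB7B. Most of these levels are near the pseudocount, and neither fold change passed, at -1.88 (SE 0.97, limma adjusted p = 0.130) for CM10 and -2.95 (SE 0.94, limma adjusted p = 0.0642) for shZBTB7B.

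JUN, which pairs with FOS proteins in AP-1, lies on chromosome 1 (59242517 to 59249720, minus strand). It was at 19.69, 1.72 and 4.48 TPM in CM10, against 90.75, 21.23 and 97.32 TPM in CTRL_CM10, and at 11.30, 39.73 and 4.98 TPM in shZBTB7B, against 171.22, 138.23 and 159.03 TPM in CTRL_shZBTB7B. The groups did not overlap in either experiment. JUN fell by 3.11 with CM10 (SE 1.02, limma adjusted p = 0.0294) and by 3.44 with the hairpin (SE 0.83, limma adjusted p = 0.0429). JUN and IER2 were the members called in both experiments.

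JUNB, which can restrain JUN, lies on chromosome 19 (12902300 to 12904129, plus strand). It stood at 79.63, 3.24 and 0 TPM in CM10, against 93.25, 30.08 and 84.02 TPM in CTRL_CM10, and did not pass (-3.17, SE 1.26, limma adjusted p = 0.0604). The shZBTB7B libraries had 0, 34.67 and 14.07 TPM, against 277.77, 613.17 and 401.73 TPM in CTRL_shZBTB7B. It fell by 5.66 (SE 1.25, limma adjusted p = 0.0389), the largest fold change of the 10 genes in that fit.

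JUND, a more constantly expressed JUN protein on chromosome 19 (18390504 to 18392432, minus strand), was never listed at 0. It was at 15.23, 9.16 and 3.97 TPM in CM10, against 73.90, 18.30 and 93.45 TPM in CTRL_CM10, and at 20.01, 45.63 and 17.67 TPM in shZBTB7B, against 142.34, 81.78 and 109.14 TPM in CTRL_shZBTB7B. The groups did not overlap in either experiment. The fold changes of -2.46 (SE 0.97, limma adjusted p = 0.0589) for CM10 and -2.05 (SE 0.70, limma adjusted p = 0.0739) for shZBTB7B nevertheless did not pass.

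The balance between the JUN genes differed between libraries. The JUNB level was 5.23, 0.354 and 0 times that of JUND in CM10 replicates 1 to 3, against 1.26, 1.64 and 0.899 times in CTRL_CM10. It was 0, 0.760 and 0.796 times in shZBTB7B, against 1.95, 7.50 and 3.68 times in CTRL_shZBTB7B. JUNB was thus below JUND in all 3 shZBTB7B libraries and above it in all 3 of their controls. In shZBTB7B replicate 1 JUNB was listed at 0, as were 34.7% of genes averaging at least 10 TPM in the controls. The FOS to JUND ratio overlapped, at 0.908, 0.281 and 2.72 in shZBTB7B, against 2.48, 5.27 and 0.905 in CTRL_shZBTB7B. So did the FOS to JUN ratio, at 1.61, 0.323 and 9.66, against 2.06, 3.12 and 0.621. How many other gene pairs separated was not counted. Summed over JUN, JUNB and JUND, the level was 31.3, 120 and 36.7 TPM in shZBTB7B, against 591, 833 and 670 TPM in CTRL_shZBTB7B.

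ATF3, a stress-induced leucine zipper factor that can pair with JUN proteins, lies on chromosome 1 (212738676 to 212794119, plus strand). It was at 2.21, 0 and 0 TPM in CM10, against 16.69, 0.89 and 8.75 TPM in CTRL_CM10, and did not pass (-2.22, SE 0.90, limma adjusted p = 0.0641). The shZBTB7B libraries had 0, 1.20 and 0 TPM, against 16.31, 13.23 and 55.30 TPM in CTRL_shZBTB7B, and it fell by 4.21 (SE 0.86, limma adjusted p = 0.0384).

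EGR1, a zinc finger factor induced through serum response factor, lies on chromosome 5 (137801168 to 137804992, plus strand). It stood at 25.62, 3.59 and 5.83 TPM in CM10, against 107.68, 5.08 and 22.52 TPM in CTRL_CM10. The shZBTB7B libraries had 11.76, 18.38 and 10.36 TPM, against 129.77, 159.34 and 28.11 TPM in CTRL_shZBTB7B, with no overlap. Neither fold change passed, at -1.41 (SE 1.09, limma adjusted p = 0.304) for CM10, the smallest of the 10, and -2.59 (SE 0.85, limma adjusted p = 0.0689) for shZBTB7B.

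IER2, an early response nuclear protein on chromosome 19 (13261225 to 13265725, plus strand), was at 15.76, 0 and 3.59 TPM in CM10, against 38.59, 13.38 and 55.85 TPM in CTRL_CM10. CM10 replicate 1 lay above the lowest control, and IER2 fell by 2.91 (SE 1.05, limma adjusted p = 0.0436). The shZBTB7B libraries had 0, 18.48 and 0 TPM, against 127.08, 101.29 and 148.81 TPM in CTRL_shZBTB7B. It fell by 5.54 (SE 1.20, limma adjusted p = 0.0386).

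The brakes of the response fell with the hairpin as well. ZFP36, the mRNA decay factor, lies on chromosome 19 (39897487 to 39900052, plus strand) and was at 27.98, 36.12 and 24.72 TPM in shZBTB7B, against 240.99, 1245.47 and 415.16 TPM in CTRL_shZBTB7B. It fell by 4.05 (SE 0.76, limma adjusted p = 0.0384). In CM10 it stood at 194.54, 13.66 and 2.22 TPM, against 202.61, 22.95 and 75.89 TPM in CTRL_CM10, and its fold change of -1.78 (SE 1.29) did not pass (limma adjusted p = 0.272). CM10 replicate 1 was level with the highest control.

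DUSP1, a phosphatase that switches off MAP kinases, lies on chromosome 5 (172195099 to 172198198, minus strand). It was at 9.54, 16.12 and 0 TPM in shZBTB7B, against 195.25, 121.32 and 166.33 TPM in CTRL_shZBTB7B, and fell by 4.81 (SE 1.09, limma adjusted p = 0.0404). In CM10 it stood at 23.86, 2.91 and 5.68 TPM, against 165.97, 13.28 and 32.98 TPM in CTRL_CM10, and its fold change of -2.32 (SE 1.07) missed the threshold (limma adjusted p = 0.0943).

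Counted together, 2 of the 10 genes fell with CM10, none rose and 8 did not pass, while 18.3% of the 12529 genes tested were called lower. At an unadjusted p under 0.05, 7 of 10 were lower against 31.0% of all genes tested. In 2 of 10, JUN and JUND, every CM10 library lay below every control, against 28.9% of all genes. MTRNR2L genes took 73.8% of TPM in CTRL_CM10 replicate 2, which lowers its other levels, and overlap without them was not counted. With the hairpin, 7 of 10 fell, none rose and 3 did not pass, while 11.0% of the 13665 genes tested were called lower. At an unadjusted p under 0.05, 10 of 10 were lower against 34.9%, and 10 of 10 had no overlap with the controls against 42.4%. In the reported fit the share called with CM10 is thus near that of all genes, and the share called with the hairpin is above it. Without the MTRNR2L genes, 7 of 10 were called with CM10, against 42.4% of all genes lower. With the hairpin 0 of 10 were, and 0 of all genes, in limma. The list was chosen with earlier results of these data known, so these shares are descriptions.

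The whole table was shifted, so the fold changes have to be read against it. The median fold change was -2.39 over the 10 genes and -1.004 over all genes tested for CM10, and -3.75 over the 10 genes and -1.45 over all genes for shZBTB7B. All 10 lay below the median of all genes in both experiments in the reported fit. Relative to it, JUN stood at -2.11 and EGR1 at -0.40 for CM10, and JUNB at -4.21 and JUND at -0.61 for shZBTB7B. Ranked among all fold changes of the fit, the 10 genes ran over percentiles 7.55 to 41.6 with CM10. With the hairpin they ran over percentiles 0.271 (JUNB) to 35.4 (JUND).

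**Figure D2:**
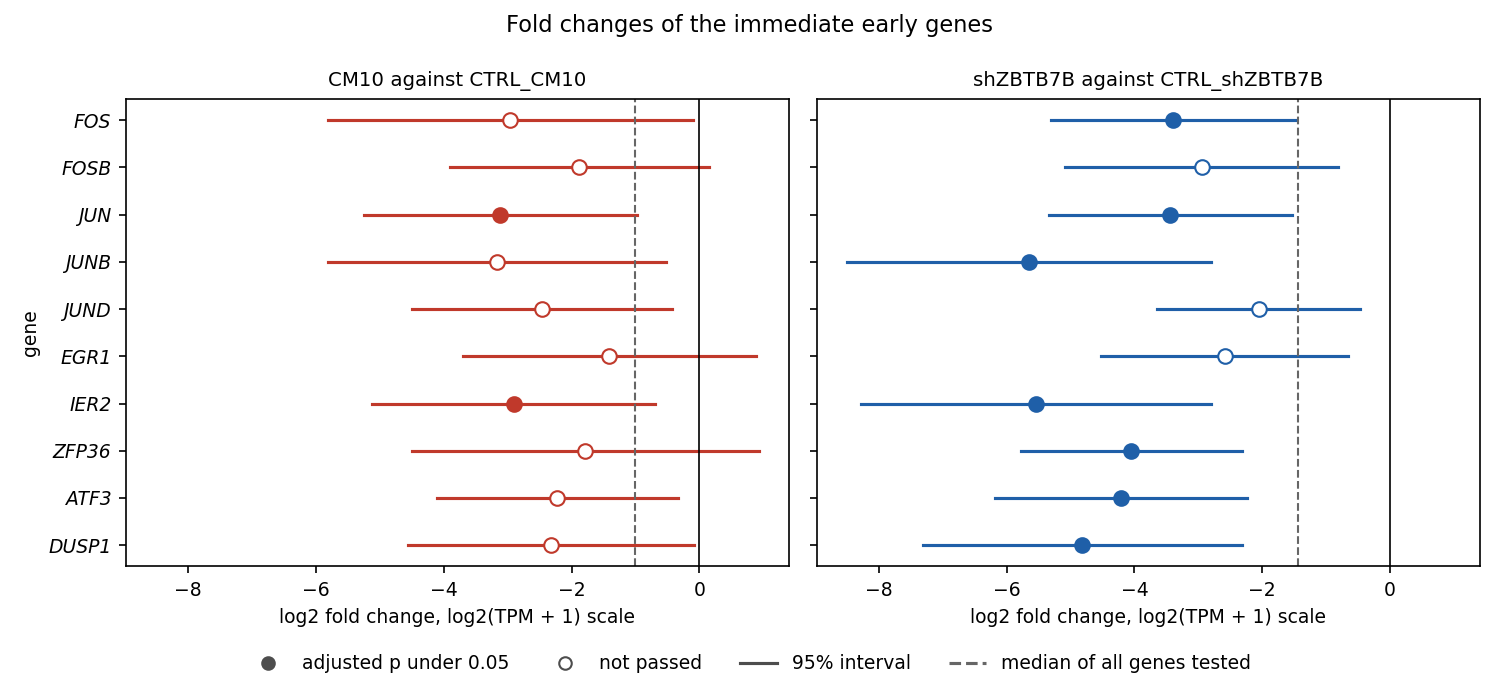
Log2 fold change of each gene on the log2(TPM + 1) scale (x axis, negative is lower in CM10 or shZBTB7B than in its own controls). Filled points have a limma adjusted p under 0.05, bars are 95% intervals, and the dashed line is the median of all genes tested, -1.004 for CM10 and -1.45 for shZBTB7B. All 20 points lie left of the dashed line of their panel.

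The number of calls changed when a single library was left out. With CM10, 0 of 10 genes were called when CM10 replicate 2, CTRL_CM10 replicate 1 or CTRL_CM10 replicate 3 was left out, where 0, 2 and 1 passed at an unadjusted p under 0.05 in limma, against 19.6%, 19.8% and 19.4% of all genes lower at that p. Without CM10 replicate 3, 1 was called, FOS, against 7.10% of all genes, and without CTRL_CM10 replicate 2, 3 were, against 12.4%. Without CM10 replicate 1, the library whose zeros were few, 7 were called lower, against 30.4% of all genes. With the hairpin, 9 of 10 were called without shZBTB7B replicate 2, all but FOSB, against 38.7% of all genes. Leaving out any other library of that experiment left 0 of 10 called and 0 of 13665 genes called in limma, while 8 to 10 of the 10 had an unadjusted p under 0.05, against 22.0% to 31.9% of all genes lower at that p. After quantile normalization or median centring, 3 and 1 of 10 were called with CM10, against 14.9% and 10.3% of all genes called lower. With the hairpin, 0 of 10 and 0 of 13665 genes were called in limma under either scaling, where 7 of 10 were under an unadjusted p of 0.05, against 9.73% and 8.88% of all genes that were lower at that p. In all 12 other settings tried in each experiment, every one of the 10 fold changes remained below 0, but so did the median of all genes. With CM10, 8 of 10 lay below that median without CTRL_CM10 replicate 1. It was 9 of 10 without CM10 replicate 3 and with a pseudocount of 0.1. All 10 did in the other settings of CM10 and in each setting of the hairpin.

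**Figure D3:**
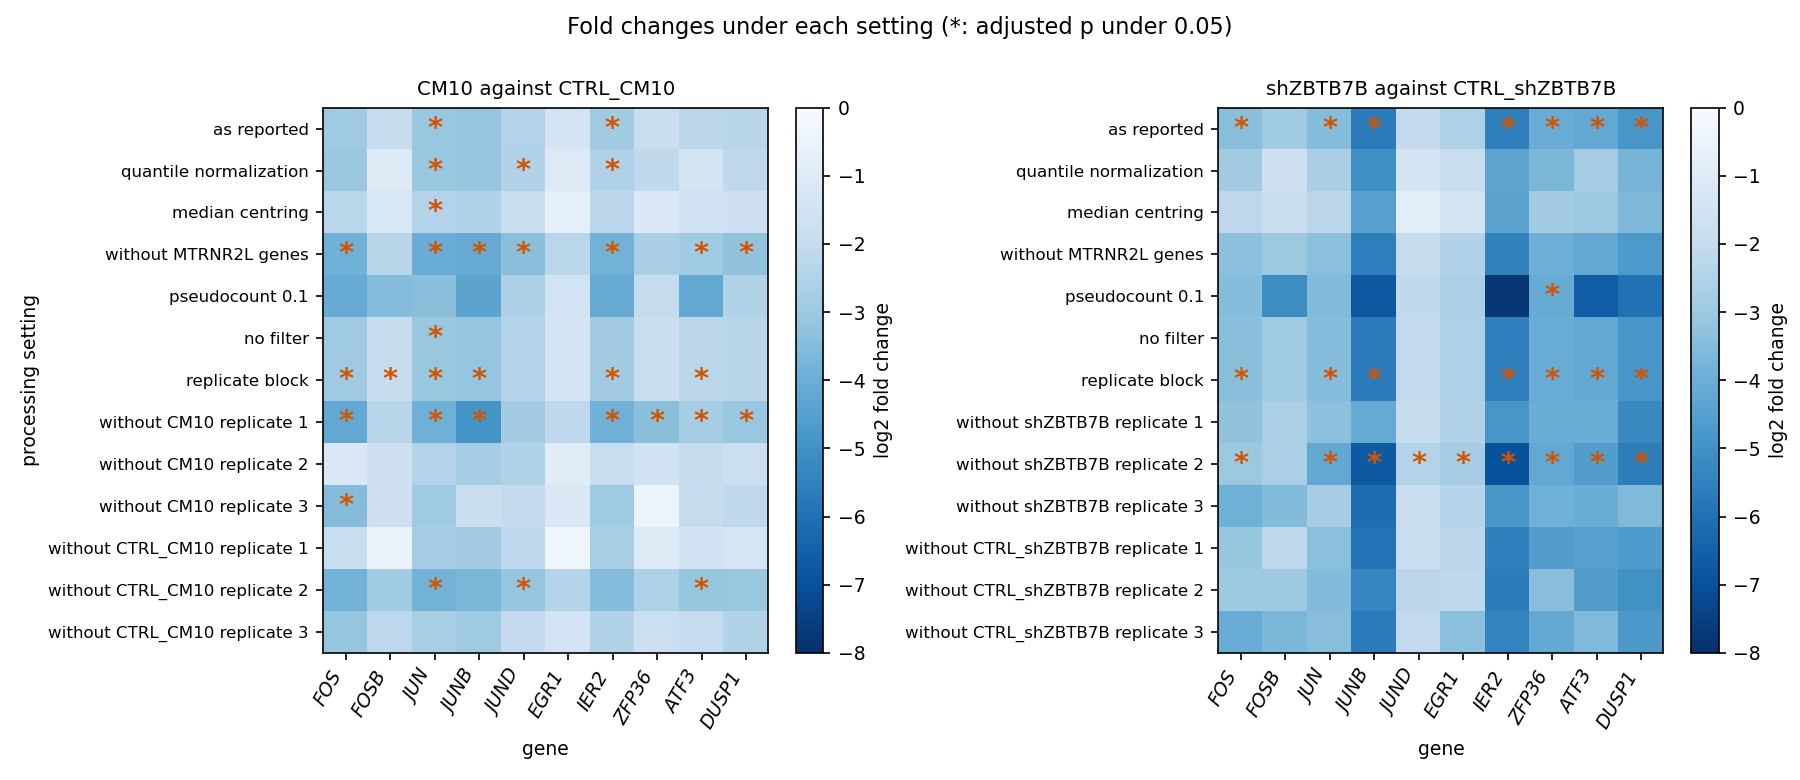
Log2 fold change of each gene (columns, colour, darker is lower) under the reported fit and each other setting (rows), with CM10 against CTRL_CM10 on the left and shZBTB7B against CTRL_shZBTB7B on the right. An asterisk marks a limma adjusted p under 0.05. All cells are below 0, as was the median of all genes under each setting. The asterisks come and go: the hairpin experiment has 7 in the reported fit, 9 without shZBTB7B replicate 2 and 0 after quantile normalization.

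The CM10 effect and the hairpin effect on the 10 genes were compared directly over the 12 libraries. The difference, the CM10 effect minus the hairpin effect, ran over -0.41 (JUND) to 2.63 (IER2) on the log2 scale, and 0 of 10 passed in limma (adjusted p 0.604 to 0.950), with 0.00% of 15089 genes called. At an unadjusted p under 0.05, 0 of the 10 passed, as did 1458 of all genes. The 95% interval of the difference was -0.97 to 6.24 for IER2 and -1.86 to 6.83 for JUNB, so differences of several log2 units in either gene were not detectable with 3 libraries a group.

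Rank within a library does not depend on the share that MTRNR2L genes take. The median percentile of the 10 genes among the 18665 genes was 87.5, 63.0 and 68.4 in CM10 replicates 1 to 3, against 94.3, 90.1 and 94.98 in CTRL_CM10. It was 74.7, 83.4 and 58.5 in shZBTB7B, against 96.5, 94.8 and 94.3 in CTRL_shZBTB7B. This median was thus lower in all 6 perturbed libraries than in all 6 controls, but not every gene ranked lower. ZFP36 stood at percentile 96.9 in CM10 replicate 1, against 93.2 and 96.0 in CTRL_CM10 replicates 2 and 3. How many of all genes separated by rank in this way was not counted. The highest of the 10 was not the same gene everywhere: in CM10 replicates 1 and 2 it was ZFP36, with 43.8% and 39.8% of their summed level, and in replicate 3 FOS with 47.6%, against FOS with 34.0%, JUNB with 19.9% and JUN with 18.0% in CTRL_CM10 replicates 1 to 3. In shZBTB7B replicates 1 to 3 it was ZFP36 (28.3%), JUND (20.4%) and FOS (39.4%), against FOS (20.9%), ZFP36 (42.7%) and ZFP36 (26.2%) in CTRL_shZBTB7B.

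**Figure D4:**
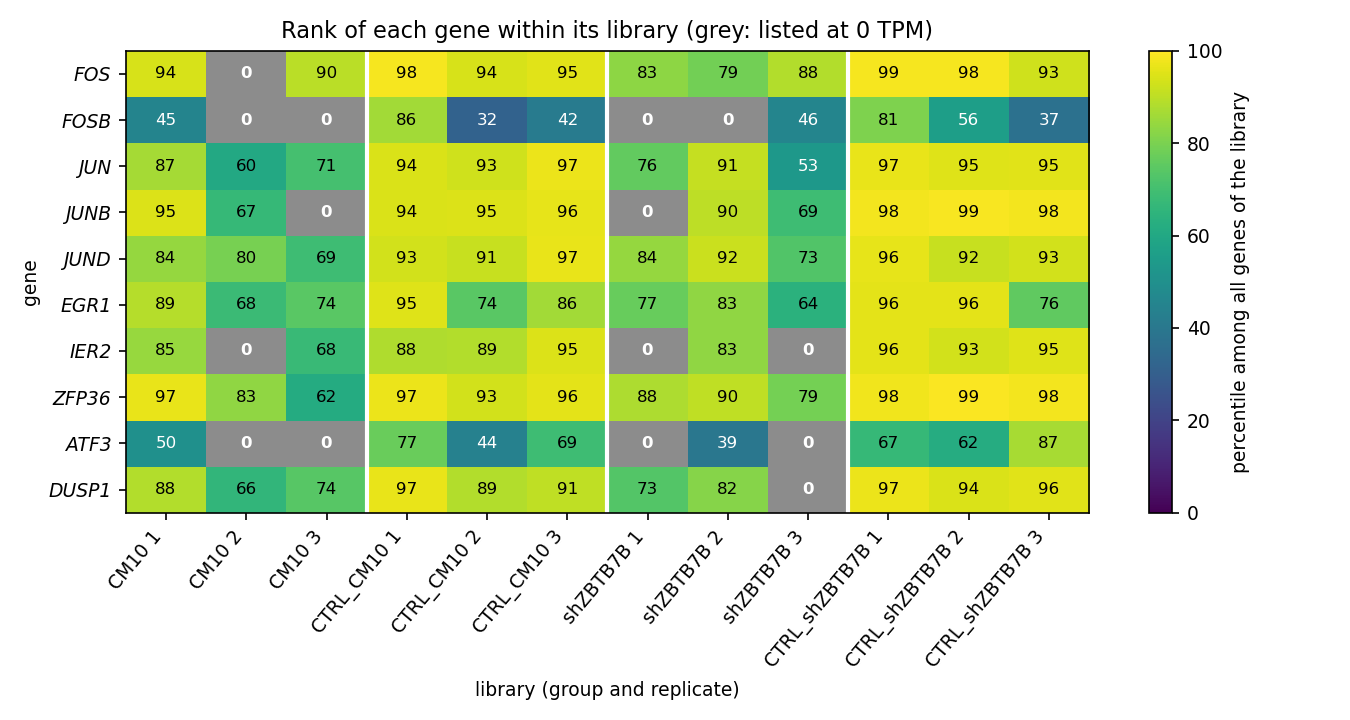
Percentile of each gene (rows) among all genes of its library (columns, group and replicate), from 0 to 100, with grey cells marked 0 where the gene was listed at 0 TPM. No control library has a grey cell, whereas CM10 replicates 1 to 3 have 0, 4 and 3 and shZBTB7B replicates 1 to 3 have 4, 1 and 3. Of all genes averaging at least 10 TPM in the controls, 4.46%, 31.3% and 36.7% were at 0 in CM10 and 34.7%, 1.67% and 29.4% in shZBTB7B.

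The 2 control groups carry the same label of cell line but come from separate tables, and their levels differed. JUN, JUNB, IER2 and ZFP36 were higher in CTRL_shZBTB7B than in CTRL_CM10 without overlap, for example JUN at 138.23 to 171.22 TPM against 21.23 to 97.32 TPM. The ranges of the other 6 genes overlapped. How many of all genes differed so was not counted. The median gene also stood higher in CTRL_shZBTB7B, at 7.11 to 8.16 TPM, against 1.35 to 3.83 TPM in CTRL_CM10. MTRNR2L genes took 73.8% and 46.0% of TPM in CTRL_CM10 replicates 2 and 3, against 2.44% to 10.4% in CTRL_shZBTB7B. Ordered by group mean, the highest was CTRL_shZBTB7B and the second CTRL_CM10 for all 10 genes, with the CM10 and shZBTB7B groups below them. Between these last groups the ranges overlapped for 9 of the 10 genes, and for JUND they did not, at 3.97 to 15.23 TPM in CM10 and 17.67 to 45.63 TPM in shZBTB7B.

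The 10 genes varied together. Across the 12 libraries, the Pearson correlation of log2(TPM + 1) between pairs ran over 0.645 to 0.940 with a median of 0.809. The closest pair was JUN with IER2 and the loosest FOSB with IER2. After removing the group means the range was 0.129 to 0.923 with a median of 0.603, with the same pairs at the ends. These libraries share the scaling to a fixed total and the shift of all genes, and the correlations are descriptions. Among 7129 genes averaging at least 10 TPM, the ones whose level followed the mean of the 10 most closely over the 12 libraries were AEBP1, a secreted collagen-binding protein (r = 0.982), ELN, elastin (0.977), TP53I13 (0.977), ERCC3, a helicase of transcription factor TFIIH (0.975), and ACKR3, a chemokine receptor (0.975), and 454 genes reached at least 0.9.

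Counts called in the lists below stand beside those of all genes tested. With CM10, 18.3% of 12529 genes were called lower and 1705 genes higher. With the hairpin, 11.0% of 13665 were called lower and 98 genes higher. Of 38 other early response genes, 30 were tested for CM10, and 8 fell, 22 did not pass and none rose, with a median fold change of -2.02 against -1.004 for all genes. ID3, an inhibitor of helix-loop-helix factors, was at 22.56, 0 and 0 TPM in CM10, against 86.09, 24.85 and 114.71 TPM in CTRL_CM10 (fell by 4.48, SE 1.16, limma adjusted p = 0.0101). HES1, a Notch target, was at 1.37, 0 and 0 TPM in CM10, against 6.06, 9.92 and 22.50 TPM in CTRL_CM10 (fell by 3.19, SE 0.85, limma adjusted p = 0.0117). With the hairpin, 36 were tested, and 13 fell, 23 did not pass and none rose, with a median of -2.97 against -1.45. CCN1, a matrix-bound growth factor-induced protein, was at 4.16, 5.22 and 7.34 TPM in shZBTB7B, against 147.88, 98.46 and 72.14 TPM in CTRL_shZBTB7B (fell by 3.99, SE 0.70, limma adjusted p = 0.0384). RHOB, a small GTPase, was at 11.97, 15.32 and 21.11 TPM in shZBTB7B, against 301.65, 994.51 and 134.88 TPM in CTRL_shZBTB7B (fell by 4.36, SE 0.84, limma adjusted p = 0.0384).

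Among 21 other AP-1 and ATF factors, with CM10 2 rose, 2 fell and 16 of the 20 tested did not pass, with a median of -0.54, a value of 0.11 after median centring. ATF6, a sensor of unfolded protein in the endoplasmic reticulum, was at 328.83, 306.11 and 325.84 TPM in CM10, against 50.75, 1.92 and 4.34 TPM in CTRL_CM10 (rose by 5.11, SE 1.12, limma adjusted p = 0.00454). JDP2, a repressor that pairs with JUN, was at 268.22, 268.60 and 260.50 TPM in CM10, against 59.39, 16.61 and 12.34 TPM in CTRL_CM10 (rose by 3.46, SE 1.04, limma adjusted p = 0.0207). CREB3 fell by 3.25 (SE 1.05, limma adjusted p = 0.0285), and BATF was listed at 0 in all 3 CM10 libraries, against 1.19, 4.37 and 11.11 TPM in CTRL_CM10 (limma adjusted p = 0.0193). With the hairpin 1 of 21 fell and none rose, and the median of -1.15 was 0.19 after quantile normalization. The gene called was BATF3, listed at 0 in all 3 shZBTB7B libraries, against 6.58, 5.88 and 25.62 TPM in CTRL_shZBTB7B (limma adjusted p = 0.0384).

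Of 26 kinases and factors upstream, 25 were tested for CM10, and 4 rose, 7 fell and 14 did not pass, against 18.3% of all genes called lower. BRAF, the kinase that starts the MAP kinase cascade, was at 3190.16, 3346.97 and 3713.30 TPM in CM10, against 513.03, 4.50 and 28.41 TPM in CTRL_CM10 (rose by 6.29, SE 1.52, limma adjusted p = 0.00718). RPS6KA5, a kinase that phosphorylates histones and CREB, was at 606.19, 579.79 and 691.07 TPM in CM10, against 63.97, 1.06 and 3.25 TPM in CTRL_CM10 (rose by 6.24, SE 1.21, limma adjusted p = 0.00346). HRAS fell by 3.46 (SE 0.93, limma adjusted p = 0.0121), and RPS6KA1 was listed at 0 in all 3 CM10 libraries, against 2.91, 7.90 and 8.68 TPM in CTRL_CM10 (limma adjusted p = 0.00841). With the hairpin 1 of 26 rose and 1 fell. BRAF was at 3410.13, 45.43 and 3630.32 TPM in shZBTB7B, with replicate 2 far below the others, against 23.41, 9.38 and 10.27 TPM in CTRL_shZBTB7B (rose by 5.87, SE 1.56, limma adjusted p = 0.0477). In shZBTB7B replicates 1 and 3 BRAF thus lay within the range of the CM10 libraries. Replicate 2, which was closer to its controls across genes, did not. Whether this level belongs to either perturbation or to these libraries was not tested. MAPK14, the p38 kinase, fell by 3.46 (SE 0.93, limma adjusted p = 0.0479).

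Of 16 other feedback phosphatases and inhibitors, 15 were tested for CM10, and 2 rose and none fell. SPRED1, an inhibitor of RAS signalling, rose by 3.80 (SE 0.93, limma adjusted p = 0.00759), and DUSP10, a phosphatase of stress kinases, rose by 3.89 (SE 1.03, limma adjusted p = 0.0115). With the hairpin none of the 16 passed in limma, and their median of -0.99 was 0.21 after median centring. Of 16 mRNA decay partners, DCP2, the decapping enzyme, rose by 2.60 with CM10 (SE 0.90, limma adjusted p = 0.0372) and CNOT3 of the deadenylase complex fell by 2.19 (SE 0.79, limma adjusted p = 0.0421). With the hairpin 1 of 16 fell, ZFP36L1, the nearest relative of ZFP36 on the list, at 15.33, 40.03 and 21.61 TPM in shZBTB7B, against 336.39, 391.66 and 234.51 TPM in CTRL_shZBTB7B (fell by 3.67, SE 0.67, limma adjusted p = 0.0384).

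Among 19 AP-1 target genes, 12 were tested for CM10, and 1 rose and 3 fell, against 18.3% of all genes called lower. EREG, a growth factor, was at 2.56, 4.77 and 3.88 TPM in CM10 and listed at 0 in all 3 CTRL_CM10 libraries (limma adjusted p = 0.0135). MMP1, a collagenase, was listed at 0 in all 3 CM10 libraries, against 2.57, 42.08 and 2.12 TPM in CTRL_CM10 (limma adjusted p = 0.0216), and HMOX1, heme oxygenase, fell by 3.16 (SE 1.03, limma adjusted p = 0.0290). With the hairpin 14 were tested, and 4 fell and none rose, against 11.0% of all genes called lower. HBEGF, a growth factor of the EGF family, was at 0, 1.88 and 0 TPM in shZBTB7B, against 16.26, 17.45 and 28.17 TPM in CTRL_shZBTB7B (fell by 3.89, SE 0.80, limma adjusted p = 0.0384), and CD44, an adhesion receptor, was at 28.18, 34.54 and 15.09 TPM in shZBTB7B, against 161.39, 148.54 and 178.59 TPM in CTRL_shZBTB7B (fell by 2.68, SE 0.65, limma adjusted p = 0.0434).

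Markers of other cell types moved beside the 10 genes. With the hairpin 7 of 8 endothelial markers fell, against 11.0% of all genes tested. VWF and CDH5 were listed at 0 in all 3 shZBTB7B libraries, against 24.60 to 42.73 TPM and 21.45 to 56.95 TPM in CTRL_shZBTB7B. The endothelial sum was 66.0, 18.5 and 117 TPM in shZBTB7B, against 247 to 508 TPM in CTRL_shZBTB7B, and in shZBTB7B replicates 1 and 3 most of it was TIE1, the marker that did not pass, at 56.64, 1.39 and 103.73 TPM in shZBTB7B, against 21.50, 9.12 and 29.53 TPM in CTRL_shZBTB7B. TIE1 rose by 4.30 with CM10 (limma adjusted p = 0.00544), at 81.96, 146.01 and 103.85 TPM in CM10, against 12.41, 0.69 and 6.40 TPM in CTRL_CM10.

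With the hairpin 5 of 9 fibroblast markers fell, against 11.0% of all genes tested. LUM fell by 4.22 and PDGFRB fell by 4.63 on the log2 scale, and the list summed to 95.1 to 376 TPM in shZBTB7B, against 1618 to 3661 TPM in CTRL_shZBTB7B. With CM10 1 of 9 passed, COL3A1, which fell by 4.05, and the sum was 125 to 449 TPM in CM10, against 131 to 6679 TPM in CTRL_CM10. After quantile normalization and after median centring COL3A1 did not pass, and THY1 was called higher, while without the MTRNR2L genes 8 of 9 were called lower, against 42.4% of all genes. Of 9 smooth muscle markers, MYLK fell by 4.97 with the hairpin and 0 were called with CM10 in limma, and the sum was 88.4 to 10047 TPM in CM10, against 219 to 2491 TPM in CTRL_CM10, and 219 to 545 TPM in shZBTB7B, against 516 to 72020 TPM in CTRL_shZBTB7B. Of the 9 leukocyte markers tested, 4 fell with CM10, against 18.3% of all genes. CD68 fell by 4.39 and CD14 fell by 3.60. LYZ was not called, at 2896.84, 3339.99 and 3408.21 TPM in CM10, against 497.90, 4468.43 and 30.37 TPM in CTRL_CM10. The leukocyte sum was 2916 to 3417 TPM in CM10, against 177 to 4602 TPM in CTRL_CM10. After quantile normalization 2 of the 9 were called, and without the MTRNR2L genes 7 were, against 14.9% and 42.4% of all genes called lower. With the hairpin 0 of 12 were called in limma, with a median of -3.06.

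Of 14 gastric markers, PGA4 rose by 6.62 with CM10 and, of the 10 tested with the hairpin, TFF1 rose by 6.01, with a list median of -0.81 for CM10 and 2.85 for the hairpin. The gastric sum was 608 to 5273 TPM in CM10, against 133 to 85770 TPM in CTRL_CM10, and 189 to 84396 TPM in shZBTB7B, against 5.99 to 1261 TPM in CTRL_shZBTB7B. Of the 10 colon markers tested with CM10, 3 fell, against 18.3% of all genes. KRT19 fell by 4.44 and KRT18 fell by 3.50. After quantile normalization 0 of the 10 passed in limma, while with the hairpin 0 of 10 were called in limma, with a median of 2.33. Of 6 erythroid markers tested with CM10, SLC4A1 rose by 2.67, at 2.77, 17.73 and 13.74 TPM in CM10, against 1.33, 0 and 0.74 TPM in CTRL_CM10, and 0 of 3 were called with the hairpin in limma. The part of these cell types in the result for the early genes was not tested.

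Under quantile normalization, median centring or without the MTRNR2L genes, the genes of the lists named by rule kept the sign of their fold changes, but not all kept their calls. With CM10, BATF, CNOT3, MMP1, HMOX1, COL3A1 and KRT18 did not pass after quantile normalization or after median centring, RPS6KA1 and KRT19 did not pass after quantile normalization, and IER2 did not pass after median centring. With the hairpin, 0 genes of any list were called in limma under these 3 settings.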

How the data were processed

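Per the labels, total RNA was extracted with Trizol and captured with biotin-modified probes on streptavidin beads. Per the study's methods, the authors aligned reads to hg19 with HISAT and estimated levels with RSEM. For HISAT and RSEM, versions: not given in the sources used here. The deposited values were taken as TPM from their sums, about 1000000 per library, since the headers name no unit. Depth is unknown, no counting interval can be given, and fold changes on the log2(TPM + 1) scale understate the change of low genes.

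Genes that reached 1 TPM in 3 or more of a table's 6 libraries were fitted with limma 3.58.1 in R 4.3.3 (group as the only term, variance trend, two-sided). P-values were adjusted by Benjamini-Hochberg over all genes tested, and genes were called at an adjusted p under 0.05. The difference of effects was fitted over all 12 libraries, since no library is shared and TPM is scaled within a library. Control columns were matched to samples by their table and title. The script was tested on simulated data.

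Members and lists were chosen with earlier results of these data known. Named were the 10 members, of each list the called genes (up to 2 per direction by smallest p) and the 5 genes most correlated with the members' mean. Marker genes named in the text were picked after their values were seen where they fall outside that rule. Promoter windows came from RefSeq (GRCh38.p14) and transcripts from GENCODE lifted to GRCh37, where 94.2% of genes had a transcript to search. Alternatives were quantile normalization, median centring, removal of the 10 MTRNR2L genes with rescaling, a pseudocount of 0.1, no filter, a replicate block and leaving out each library. Python used numpy 2.4.6, pandas 2.3.3 and scipy 1.17.1, and figures matplotlib 3.10.9.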

Additional observations from a re-analysis of the deposited data

How the results depend on the processing

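The fold changes of the 10 genes stayed below 0 under all 12 alternatives of each comparison, as did the median of all genes, but the number called did not hold. With CM10, 8 or 9 of the 10 lay below that median in 3 of the alternatives. With CM10, the 2 members called became 3 after quantile normalization, 1 after median centring and 7 without the MTRNR2L genes (7182 genes called, against 4003). Of all genes, 14.9%, 10.3% and 42.4% were called lower there. With a pseudocount of 0.1 it was 0, against 5.71% (1964 genes). At an unadjusted p under 0.05 in limma 4 members passed there, against 25.9% of all genes lower. Without the filter it was 1, against 7.81%. When a library was left out it was 0 to 7, against 3.74% to 30.4% (1257 to 5776 genes). With the hairpin, the 7 members called, of 1602 genes called, became 0 with 0 genes called in limma after quantile normalization, after median centring, without the MTRNR2L genes and without the filter. There 7, 7, 10 and 10 members had an unadjusted p under 0.05 in limma, against 9.73%, 8.88%, 30.2% and 28.7% of all genes lower at that p. The members called became 1 with a pseudocount of 0.1, against 3.24% of all genes called lower (468 genes). They became 0 to 9 when a library was left out, against 0.00% to 38.7% (0 to 6887 genes). The cause of these changes was not tested.

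The share of higher genes among the CM10 calls was 42.6%, and 55.5% after quantile normalization, 64.6% after median centring, 22.7% without the MTRNR2L genes, 63.6% with a pseudocount of 0.1 and 53.2% without the filter. The median of all genes moved to -0.27, -0.35 and -1.72 under the 3 scalings of CM10, against -1.004, and to -0.23, -0.25 and -1.38 for the hairpin, against -1.45. No member passed for the difference of the effects under any of 18 alternatives in limma (0 or 1 at an unadjusted p under 0.05), yet its sign turned for JUN after median centring (-0.0016) and without the MTRNR2L genes (-0.70), and for FOS without the MTRNR2L genes (-0.59) and with a pseudocount of 0.1 (-0.61). Leaving out a library gave -0.82 to 2.22 for FOS, -0.48 to 1.08 for JUN and -1.12 to 0.049 for JUND.

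Whether replicate numbers pair the libraries could not be settled. Deviations of same-numbered libraries from their group means correlated at -0.079, -0.047 and -0.057 for CM10 and 0.014, 0.028 and -0.070 for the hairpin. With 3 libraries a group, values this near 0 cannot exclude pairing. With the replicate block, 6 members and 4805 genes were called for CM10, of which 36.9% were higher, and 7 members and 1387 genes for the hairpin, of which 18.5% were higher, against 6.12% without the block. Of all genes tested with the block, 24.2% were called lower for CM10 and 8.27% for the hairpin. With no counts, depth limits cannot be stated.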
